A study of Homo sapiens with 16 samples.

Results

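The sites bound by 2 transcription factors, MITF and MAFG, were compared in the same cells. The comparison used 6 of the 16 samples of the study, namely 3 CUT&RUN libraries made with anti-MITF and 3 made with anti-MAFG, all from WM164 cells that overexpress green fluorescent protein (GFP). WM164 is an established human melanoma cell line. In CUT&RUN an antibody directs a nuclease to its target in isolated nuclei, and the released DNA fragments are sequenced. The other cells of the study, WM164 overexpressing MAFG, were profiled with the same antibodies and served here only to see how sites found in GFP cells behaved in libraries that had not been used to choose them. The GFP cells are the controls of that design: they carry an overexpressed protein too, all 6 libraries share this background, and no line without overexpression was analysed here. The labels give neither the promoter that drives GFP or MAFG nor whether either line is a clone. One anti-H3K4me3 library of GFP cells marked active promoters. It has no replicate. The IgG control samples were not analysed here. The labels number the replicates without saying that they came from separate cultures, so every p-value measures only the spread between these libraries, which may be technical.

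MITF is a basic helix-loop-helix leucine zipper factor and the master regulator of the melanocyte lineage, where it binds the E-box CACGTG and the M-box TCATGTG at genes for pigment, survival and lysosomes. MAFG is a small MAF protein without a transactivation domain. It binds MAF recognition elements and antioxidant response elements as a homodimer, or as a heterodimer with NRF2, NRF1 or the BACH proteins, and with such partners controls genes of the oxidative stress response. The histone mark H3K4me3 sits at the promoters of active genes.

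The peaks of the 6 lists were merged where they overlapped by at least 1 bp, which gave 43562 regions on the human genome build GRCh38. Of these, 2133 (4.90%) held a peak in 3 of 3 anti-MITF libraries and in 0 of 3 anti-MAFG libraries and are called MITF-preferring. The converse rule gave 2003 MAFG-preferring regions (4.60%), and 5131 regions (11.8%) held a peak in all 6 libraries. These counts are set by the rule itself. Without anti-MAFG replicate 3, which had the shortest list, 4541 regions would be MAFG-preferring. Peak calling in a cell population cannot tell binding in fewer cells from weaker binding in each cell. H3K4me3 peaks lay within 1000 bp of the start of 6 of 6 melanocyte marker genes (MITF, SOX10, PMEL, MLANA, TYR and S100B). They lay there at 0 of 8 marker genes of other cell types, among them KRT5, KRT14 and COL1A1, and at 57.0% of all protein-coding genes. Within 5000 bp of either gene end, COL1A1 did have an H3K4me3 peak, and peaks of 3 anti-MITF and 2 anti-MAFG libraries.

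The sequences below are 250 bases upstream of the gene start, 5′ to 3′ on the gene's strand, from RefSeq (GRCh38.p14). Capitals mark the E-box CACGTG, the M-box TCATGTG or its complement CACATGA, the AP-1-like element TGACTCA or TGAGTCA, and the MAF element TGCTGA or TCAGCA. The first 5 lie in MITF-preferring regions at starts of genes of lysosome function and are examples that hold E-boxes. They are SPNS1 (a lysosomal lysophospholipid transporter, chr16:28974528-28974777, plus strand), LAMTOR1 (a subunit of the Ragulator complex on lysosomes, chr11:72103298-72103547, minus strand), MCOLN1 (a lysosomal calcium channel, chr19:7522374-7522623, plus strand), CTSA (cathepsin A, chr20:45891085-45891334, plus strand) and LAMP1 (a lysosomal membrane protein, chr13:113296989-113297238, plus strand).
SPNS1: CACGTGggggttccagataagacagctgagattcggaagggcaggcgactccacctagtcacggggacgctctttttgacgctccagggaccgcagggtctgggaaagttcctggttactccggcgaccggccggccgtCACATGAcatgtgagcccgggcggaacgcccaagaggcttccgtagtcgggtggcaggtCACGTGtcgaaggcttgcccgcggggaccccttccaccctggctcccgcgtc
LAMTOR1: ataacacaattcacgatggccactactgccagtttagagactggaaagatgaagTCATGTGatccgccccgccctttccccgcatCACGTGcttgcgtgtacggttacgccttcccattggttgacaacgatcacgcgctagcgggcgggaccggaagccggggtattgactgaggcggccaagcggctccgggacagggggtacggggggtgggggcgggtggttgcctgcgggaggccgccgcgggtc
MCOLN1: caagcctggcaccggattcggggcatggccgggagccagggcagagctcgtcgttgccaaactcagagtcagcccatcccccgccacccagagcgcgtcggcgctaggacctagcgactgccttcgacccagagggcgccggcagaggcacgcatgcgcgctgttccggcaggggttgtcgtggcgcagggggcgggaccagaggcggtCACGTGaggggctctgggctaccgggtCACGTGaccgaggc
CTSA: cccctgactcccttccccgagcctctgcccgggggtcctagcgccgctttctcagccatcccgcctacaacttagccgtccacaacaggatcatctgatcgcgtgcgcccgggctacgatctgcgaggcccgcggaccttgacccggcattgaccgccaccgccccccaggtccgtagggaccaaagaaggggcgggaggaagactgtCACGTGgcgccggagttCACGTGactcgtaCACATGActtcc
LAMP1: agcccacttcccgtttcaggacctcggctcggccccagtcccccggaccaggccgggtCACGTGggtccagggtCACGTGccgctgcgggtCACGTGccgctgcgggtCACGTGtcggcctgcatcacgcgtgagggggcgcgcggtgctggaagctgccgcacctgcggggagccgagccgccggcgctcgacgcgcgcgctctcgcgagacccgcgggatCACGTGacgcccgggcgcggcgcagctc

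The stretch upstream of LAMP1 holds 5 E-boxes, and those of SPNS1, MCOLN1 and CTSA hold 2 each. SPNS1, LAMTOR1 and CTSA also hold 1 M-box each. No AP-1-like or MAF element was found in these 5 stretches. Not every such start holds an E-box. FLCN, also a gene of lysosome function in a MITF-preferring region, had 0 E-boxes and 0 M-boxes around its start. Of all promoter windows in MITF-preferring regions, 27.5% held an E-box. The LAMP1 stretch overlapped a peak of only 1 anti-MITF library, although the merged region there held peaks of all 3. The stretches of SPNS1, LAMTOR1, MCOLN1 and CTSA overlapped peaks of 3 anti-MITF libraries each. The next 3 were chosen for contrast. POC5 (a centriole protein, chr5:75717438-75717687, minus strand) carries the MAFG-preferring region with the best rank at a gene start. OSGIN1 (an NRF2 target gene, chr16:83952990-83953239, plus strand) and DCT (a pigment enzyme gene, chr13:94479683-94479932, minus strand) lie in regions with peaks in all 6 libraries.
POC5: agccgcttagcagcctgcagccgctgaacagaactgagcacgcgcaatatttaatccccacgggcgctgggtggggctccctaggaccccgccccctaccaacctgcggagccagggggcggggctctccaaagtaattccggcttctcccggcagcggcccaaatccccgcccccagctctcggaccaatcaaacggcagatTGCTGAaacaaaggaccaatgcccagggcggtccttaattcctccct
OSGIN1: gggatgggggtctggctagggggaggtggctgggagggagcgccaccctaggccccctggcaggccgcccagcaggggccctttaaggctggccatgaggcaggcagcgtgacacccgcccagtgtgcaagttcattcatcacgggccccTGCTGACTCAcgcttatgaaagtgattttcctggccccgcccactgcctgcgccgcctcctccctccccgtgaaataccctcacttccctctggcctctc
DCT: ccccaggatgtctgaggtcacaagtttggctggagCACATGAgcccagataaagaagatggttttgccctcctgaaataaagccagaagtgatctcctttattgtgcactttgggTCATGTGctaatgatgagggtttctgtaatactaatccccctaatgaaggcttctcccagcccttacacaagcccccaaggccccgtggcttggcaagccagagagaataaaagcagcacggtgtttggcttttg

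POC5 holds 1 MAF element. In OSGIN1 the 10 capitals are a MAF element that overlaps an AP-1-like element. DCT holds 2 M-boxes. These matches describe letters in the window and do not show which protein was bound.

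The anti-MITF lists held 19828, 20117 and 20102 peaks, and the anti-MAFG lists 26221, 23409 and 14879. The means were 20016 ± 163 (SD, n = 3) and 21503 ± 5906 (SD, n = 3), and the groups overlapped. The log2 difference of −0.06 had p = 1 in the exact permutation test over libraries, two-sided. With 3 libraries against 3, the smallest p that this test can give is 0.1, so no single comparison of libraries could reach 0.05. The median peak width was 712, 698 and 712 bp with anti-MITF and 714, 672 and 615 bp with anti-MAFG, and these overlapped as well (exact p = 0.4). Peak number thus differed by no more than the spread between libraries, most of which lay among the anti-MAFG lists. The width difference of 40.3 bp depended on the setting. It was 62 bp, without overlap, among peaks with a −log10 q of at least 5 (exact permutation p = 0.1), 63.8 bp without anti-MAFG replicate 1 (exact permutation p = 0.1) and 14.3 bp without anti-MAFG replicate 3 (exact permutation p = 0.7).

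Position separated the antibodies. Peaks with a summit within 1000 bp of a protein-coding gene start made up 27.6%, 27.3% and 26.6% of the anti-MITF lists and 16.7%, 16.6% and 17.1% of the anti-MAFG lists. Every anti-MITF library lay above every anti-MAFG library, with means of 27.2% ± 0.471 and 16.8% ± 0.294 (SD, n = 3 each). That is 10.4 percentage points more with anti-MITF (exact permutation p = 0.1, or 0.25 with Benjamini-Hochberg adjustment over the 5 comparisons of library measures).

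H3K4me3 gave a wider gap. Peaks overlapping an H3K4me3 peak made up 41.1%, 40.9% and 39.8% of the anti-MITF lists and 26.0%, 25.4% and 26.5% of the anti-MAFG lists. The groups did not overlap. The difference of the means, 40.6% ± 0.680 against 26.0% ± 0.579 (SD, n = 3 each), was 14.6 points, with exact permutation p = 0.1 and an adjusted value of 0.25. Promoter peaks nearly all carried the mark with both antibodies, 96.0% ± 0.226 with anti-MITF and 92.2% ± 0.322 with anti-MAFG. Among the remaining peaks, farther than 1000 bp from a start, 19.97% ± 0.401 with anti-MITF and 12.6% ± 0.495 with anti-MAFG overlapped H3K4me3. The higher share of marked sites with anti-MITF was thus seen both at and away from the tabled starts.

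Anti-MAFG peaks were farther from genes. The median distance from summit to the nearest start was 17043 ± 449 bp with anti-MITF and 35283 ± 1150 bp with anti-MAFG (SD, n = 3 each, exact permutation p = 0.1). Summits over 10000 bp from any start made up 55.9%, 56.2% and 56.8% of the anti-MITF peaks and 68.6%, 69.0% and 69.3% of the anti-MAFG peaks. Peaks lying within the body of a protein-coding gene differed less, at 57.0% ± 0.258 and 53.7% ± 0.343.

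**Figure D1:**
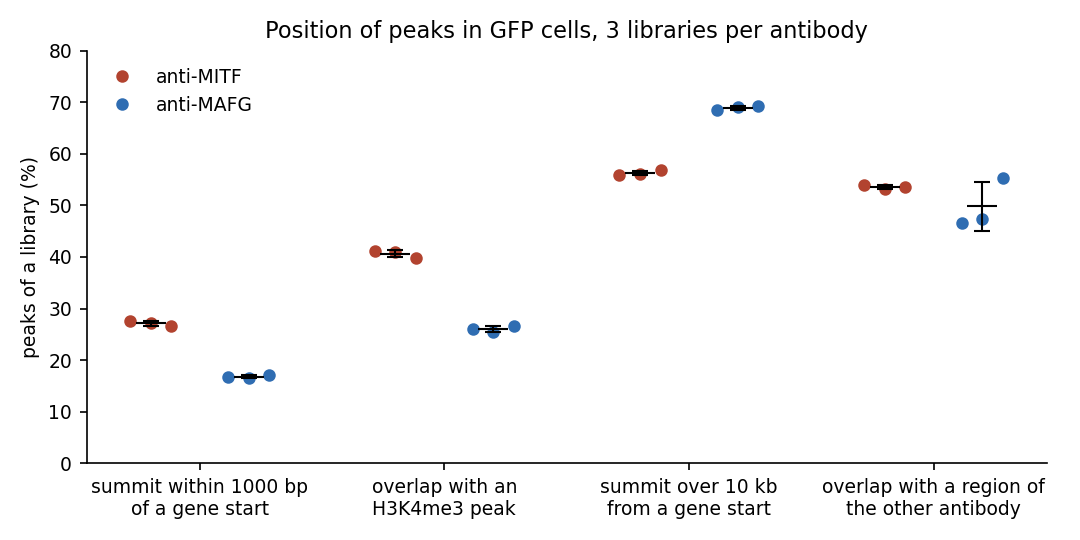
Each point is 1 library of GFP cells, plotted as the percent of its peaks with each feature, and each black mark is the mean of 3 libraries with its SD. For the promoter and H3K4me3 shares the 3 anti-MITF points all lie above the 3 anti-MAFG points, whereas the share overlapping the other antibody's peaks is mixed.

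The share of a list's peaks that overlapped a region called by at least 2 of the 3 libraries of the other antibody did not separate the groups. It was 54.0%, 53.2% and 53.6% with anti-MITF and 46.7%, 47.4% and 55.3% with anti-MAFG (exact permutation p = 0.4). Its sign turned with the settings. The difference of 3.81 points became −0.101 when the lists were cut to the same number of peaks. Leaving out 1 library moved it between −15.8 and 13.8, and it turned negative without anti-MAFG replicate 1 and without anti-MAFG replicate 2.

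The peaks of each list were then ranked within that list by fold enrichment, the authors' own value for each peak. Fold enrichments printed below for single regions or genes belong to their own list. They do not compare the strength of binding between antibodies. H3K4me3 overlap was higher with anti-MITF at every rank. It ran from 49.4% to 50.4% among the 500 best anti-MITF peaks and from 30.0% to 33.0% among the 500 best anti-MAFG peaks. Beyond rank 10000 the ranges were 37.0% to 39.0% and 24.9% to 27.3%. Promoter peaks made up 28.6% to 31.0% of the 500 best with anti-MITF and 18.0% to 19.2% with anti-MAFG. The strongest peaks were mostly shared: 82.6% to 84.6% of the 500 best anti-MITF peaks and 87.4% to 90.8% of the 500 best anti-MAFG peaks overlapped such a region of the other antibody. Beyond rank 10000 this fell to 42.9% to 44.1% and 36.9% to 42.8%. The best 500 were also wider with anti-MITF, at 1582 ± 14.7 against 1370 ± 173 bp (SD, n = 3 each, exact permutation p = 0.1).

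**Figure D2:**
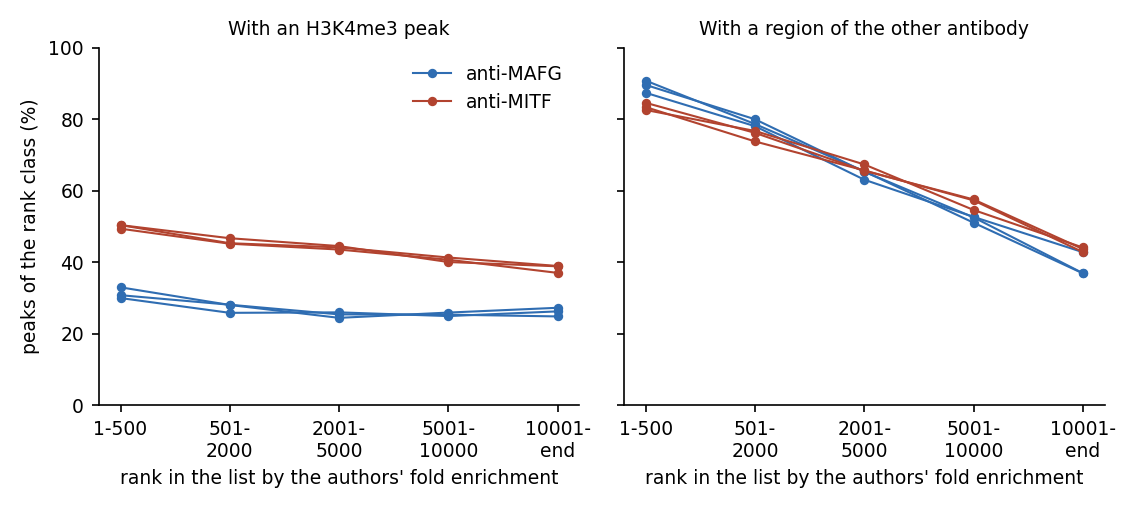
Percent of peaks by rank slice of fold enrichment within each list, 1 line per library, for H3K4me3 overlap and for overlap with the other antibody. The anti-MITF lines stay above the anti-MAFG lines for H3K4me3 in every slice, and both antibodies share most of their 500 best peaks.

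The 2 preferring classes differed more than the libraries did. They are the extremes of the same 6 lists, so a wider gap than between whole lists is not a separate result. A gene start lay within 1000 bp of the median summit of 887 of the 2133 MITF-preferring regions (41.6%), of 163 of the 2003 MAFG-preferring regions (8.14%), of 1191 of the regions shared by all 6 libraries (23.2%) and of 19.5% of all merged regions. H3K4me3 overlapped 1244 MITF-preferring regions (58.3%) and 215 MAFG-preferring regions (10.7%), beside 37.8% of the shared regions and 28.8% of all merged regions. Most MAFG-preferring regions, 1746 or 87.2%, were both away from starts and without H3K4me3, and 869 (40.7%) of the MITF-preferring regions were. The shared regions lay between the classes in each of these shares.

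The same order held when promoters were set aside. Among regions farther than 1000 bp from a start, H3K4me3 overlapped 30.3% of the MITF-preferring, 5.11% of the MAFG-preferring and 19.8% of the shared regions. Among promoter regions the shares were 97.7%, 74.2% and 97.4%. The median distance to the nearest start was 2939 bp for MITF-preferring regions, 56373 bp for MAFG-preferring regions and 29403 bp for shared regions. MITF-preferring regions lay in a gene body in 61.6% of cases and MAFG-preferring regions in 49.4%. Median widths were 1163, 1059 and 1772 bp in the order MITF-preferring, MAFG-preferring and shared, so the preferring classes were of like width and the shared regions wider. A region merged from 6 lists can only be as wide as or wider than its members.

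The contrast did not hang on the exact rule. Regions just outside it showed the same gradient. Those with a peak in 2 of 3 anti-MITF and 0 of 3 anti-MAFG libraries (2152 regions) overlapped H3K4me3 in 48.9% of cases, and those with 3 and 1 (1570 regions) in 51.2%. On the other side, regions with 0 and 2 (3558) did so in 11.2%, and those with 1 and 3 (1542) in 17.8%. Holding the number of anti-MITF libraries at 3, the share fell from 58.3% with 0 anti-MAFG libraries to 51.2%, 45.1% and 37.8% with 1, 2 and 3.

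**Figure D3:**
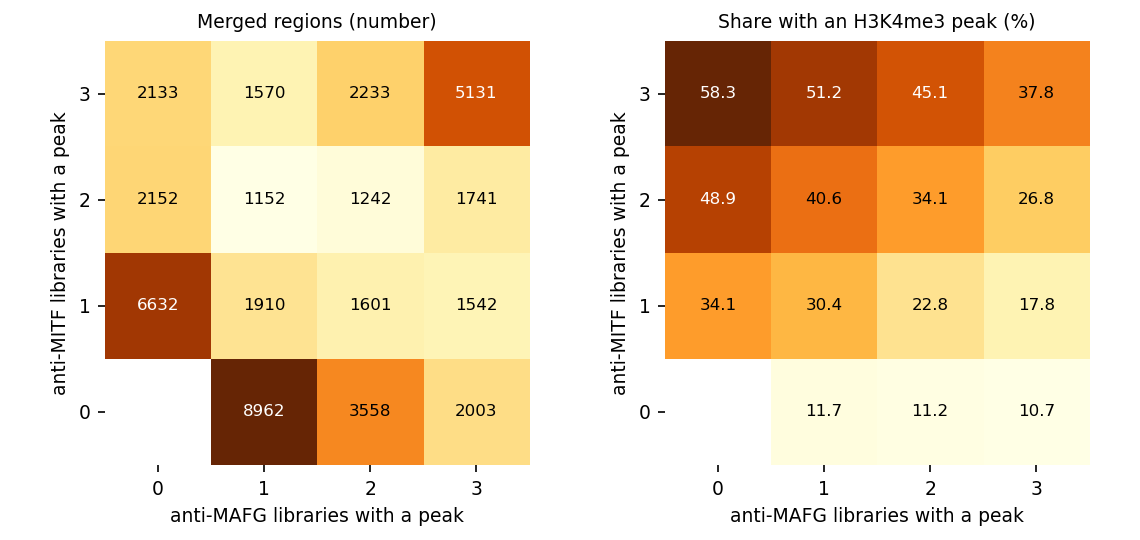
Number of merged regions (left) and percent overlapping H3K4me3 (right), by how many of the 3 anti-MITF and of the 3 anti-MAFG libraries of GFP cells called a peak there. The share is highest with 3 anti-MITF and 0 anti-MAFG libraries (58.3%) and is 10.7% with 0 and 3.

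Preferring regions were of middling rank in their own lists. The median rank percentile of MITF-preferring regions, where a low percentile is a high fold enrichment, was 42.3, 39.8 and 41.3 in the 3 anti-MITF lists. That of MAFG-preferring regions was 40.3, 41.2 and 51.3 in the anti-MAFG lists. The shared regions ranked better, at 26.7, 27.5 and 26.3 in the anti-MITF lists and 20.2, 22.4 and 32.9 in the anti-MAFG lists.

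The libraries of MAFG-overexpressing cells played no part in defining the classes, although they used the same antibodies. Their lists were much shorter, 2491, 2116 and 2495 peaks with anti-MITF and 1836, 1849 and 2818 with anti-MAFG, so most regions had no peak there. Anti-MITF libraries of these cells called 373, 322 and 361 of the 2133 MITF-preferring regions (17.5%, 15.1% and 16.9%), and anti-MAFG libraries called 6, 10 and 22 (0.281%, 0.469% and 1.03%). The anti-MAFG libraries called 163, 156 and 213 of the 2003 MAFG-preferring regions (8.14%, 7.79% and 10.6%), and the anti-MITF libraries 3, 0 and 4. The antibodies did not overlap in either class. The differences were 15.9 points at MITF-preferring regions and −8.74 points at MAFG-preferring regions, each with exact permutation p = 0.1. At the shared regions anti-MITF called 19.7% ± 1.31 and anti-MAFG 13.1% ± 2.18 (SD, n = 3 each), a difference of 6.62 points.

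**Figure D4:**
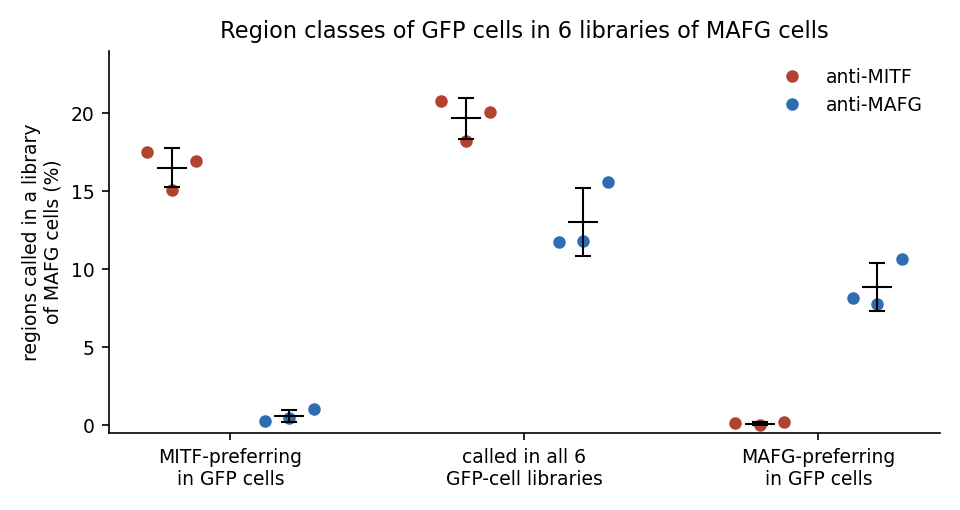
Percent of regions of each class, defined in GFP cells, that held a peak in each library of MAFG-overexpressing cells (points), with the mean of 3 and its SD as black marks. Anti-MITF points lie above anti-MAFG points at MITF-preferring and shared regions, and below them at MAFG-preferring regions.

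At the 5131 shared regions, the summits of both antibodies were close. The median distance between the best peaks' summits, over the 9 pairs of an anti-MITF with an anti-MAFG library, averaged 138 bp and ran from 119 to 157 bp. Between libraries of the same antibody it averaged 108 bp for anti-MITF (107 to 109) and 112 bp for anti-MAFG (96 to 128). Summits of different antibodies were thus 27.9 bp farther apart (one-sided exact permutation p = 0.1, the smallest it can give). The excess was 17.6 bp in the 3640 regions where every library had 1 peak, and 3.67 bp in the 244 regions of at most 1000 bp. At shared promoters, anti-MITF summits lay a median of 79, 67 and 63 bp downstream of the start and anti-MAFG summits 34, 33.5 and 51 bp, without overlap (69.7 against 39.5 bp, exact permutation p = 0.1).

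Shared regions could still rank differently. The rank of each of the 5131 regions among them was turned into a normal score in each library and compared with limma. At an adjusted p of 0.05, 385 regions ranked higher with anti-MITF (7.50% of those tested) and 313 with anti-MAFG (6.10%), together 698 (13.6%). Leaving out 1 library gave 216 to 281 and 150 to 212 regions, the fewest without anti-MITF replicate 3 and without anti-MAFG replicate 2 in turn, and the most without anti-MAFG replicate 3. H3K4me3 overlapped 42.9% of the first set and 28.1% of the second, beside 37.8% of all 5131, and the shares at promoters were 26.2%, 16.6% and 23.2%. In MAFG-overexpressing cells, anti-MITF libraries called 57.4% ± 1.87 of the regions ranked higher with anti-MITF, and anti-MAFG libraries called 7.45% ± 1.48 of them. At the regions ranked higher with anti-MAFG the shares were 4.79% ± 1.11 and 25.8% ± 2.398 (SD, n = 3 each, exact permutation p = 0.1 for both).

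The clearest of these lay at the start of DDB2, a DNA damage recognition gene, at chr11:47213880-47215757 with H3K4me3. It ranked 4, 49.5 and 3 of 5131 with anti-MITF and 3889.5, 4576 and 3831 with anti-MAFG. Its normal score was higher by 3.81 ± 0.453 (SE, limma adjusted p = 0.000706). Regions at SCLY, near SPSB1 and QPCT, and within NECAB1 followed, each with an adjusted p from limma of 0.0011 to 0.0012. In the other direction stood a region within VIT at chr2:36756017-36757345, which ranked 4266, 5106 and 4948 with anti-MITF and 43, 72 and 222.5 with anti-MAFG (score −3.88 ± 0.486 SE, limma adjusted p = 0.000729). Next came a region within FOXP1, a forkhead transcription factor gene, at chr3:71049880-71052011, with a score difference of −3.76 ± 0.487 (SE, limma adjusted p = 0.000785). Regions near SAP30 and PMP2 and at the start of SEC24D completed the 5 with the smallest p. In MAFG-overexpressing cells, anti-MITF called the DDB2 and SPSB1 regions in 3 of 3 libraries and the SCLY region in 2, and anti-MAFG called the FOXP1 region in 3 of 3. The regions at NECAB1, QPCT, VIT, SAP30, SEC24D and PMP2 had no peak in any of those 6 libraries, and none of the 10 was called by the antibody with which it ranked lower.

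Of the 10 MITF-preferring regions with the best mean rank, 6 lay at a gene start and 7 overlapped H3K4me3. The first lay at KLHL22 (a substrate adaptor of a ubiquitin ligase) at chr22:20495210-20496881, with fold enrichments of 22.2, 20.01 and 20.2. SPNS1 followed at chr16:28973841-28975678 with 21.9, 17.8 and 21.7. ITFG2, POLR1B (a subunit of RNA polymerase I), LAMTOR1 and the pair TRAPPC6A and BLOC1S3 had regions at their starts. BLOC1S3 encodes a subunit of a complex that sorts cargo to melanosomes and other lysosome-related organelles. The LAMTOR1 region, chr11:72101935-72104641, had fold enrichments of 17.3, 19.8 and 17.6. The other 4 lay within NEK6 or nearest to MN1, DHX35 and NANOS3. In MAFG-overexpressing cells, anti-MAFG called none of the 10 and anti-MITF called 7 in 3 of 3 libraries.

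The MAFG-preferring regions presented another picture: of the best 10, only the POC5 region lay at a start and overlapped H3K4me3. The first, at chr2:198545544-198547320, was 396150 bp from the nearest end of the nearest protein-coding gene, PLCL1. It had fold enrichments of 24.01, 22.99 and 20.1. The POC5 region, chr5:75716597-75717907, had 21.2, 15.1 and 10.4. The others lay within RPA3 and UMAD1, DDX10, MDGA2 and CDH19, or nearest to JRKL, ETNK1, TSN and ECT2. In MAFG-overexpressing cells, anti-MAFG called 4 of these 10 in 3 of 3 libraries and 1 more in 2, and anti-MITF called 1 of the 10 in 1 library.

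Genes were next read by role, counting regions within 5000 bp of a start. Over all 20033 protein-coding genes, 6.96% had a MITF-preferring region there, 1.68% a MAFG-preferring region and 8.83% a shared region. Peaks of all 3 anti-MITF libraries lay near 24.8% of genes, peaks of all 3 anti-MAFG libraries near 14.6% and peaks of all 6 near 9.88%. Peaks of 3 anti-MITF and 0 anti-MAFG libraries lay near 5.53%, and the converse near 0.993%. Of all genes, 48.5% had no peak there. The listed genes were chosen with earlier results of these data known, so the counts are descriptions.

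Of 16 pigment genes, 11 had peaks of all 3 anti-MITF libraries and 4 had peaks of all 3 anti-MAFG libraries. PMEL (the melanosome fibril protein), RAB38 and MLPH (melanosome traffic) and MC1R (the melanocortin receptor) had a MITF-preferring region. Of these, PMEL had no anti-MAFG peak within 5000 bp, RAB38 and MC1R had one in 1 library and MLPH in 2. TYR, the rate-limiting enzyme of melanin synthesis, DCT, SLC24A5, RAB27A and MREG had a shared region. Near TYR the best anti-MITF peaks had fold enrichments of 15.1, 18.4 and 14.8. The best anti-MAFG peaks had 7.38 and 6.36 in replicates 1 and 2, and replicate 3 had no peak within that distance. GPNMB, a melanosome glycoprotein gene, had anti-MITF peaks of 16.6, 17.7 and 16.6 and 1 anti-MAFG library with a peak. TYRP1, OCA2 and GPR143 had no peak of either antibody within 5000 bp.

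The lysosome list leaned furthest to anti-MITF among the larger lists. Of its 16 genes, 13 had peaks of all 3 anti-MITF libraries and 3 had peaks of all 3 anti-MAFG libraries. A MITF-preferring region lay near LAMP1, CTSA, HEXA (a lysosomal hexosaminidase), MCOLN1 and FLCN (folliculin, which acts on lysosomal nutrient signalling), and a shared region only near ATP6V1A, a subunit of the proton pump. FLCN had anti-MITF fold enrichments of 18.1, 13.4 and 16.4, CTSA 9.33, 9.24 and 10.9, and LAMP1 10.1, 5.33 and 6.23. No anti-MAFG library had a peak near those 3, nor near HEXA or MCOLN1, which makes 5 of the 16 genes with 3 anti-MITF and 0 anti-MAFG libraries. SQSTM1, an autophagy receptor gene, had anti-MITF values of 21.5, 18.1 and 18.8 and anti-MAFG peaks of 4.85 and 5.09 in replicates 1 and 2. All 16 genes had an H3K4me3 peak within 5000 bp, beside 59.6% of all genes.

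Genes of the NRF2 and small MAF response were bound by both antibodies. Of 16, 10 had peaks of all 3 anti-MITF libraries and 7 of all 3 anti-MAFG libraries. Shared regions lay near GCLC (glutathione synthesis), NQO1 (quinone reduction), TXNRD1 (thioredoxin reduction), PGD (the pentose phosphate pathway) and OSGIN1. The iron genes HMOX1, FTL and FTH1 and the pentose phosphate gene TKT had a MITF-preferring region. FTL, FTH1 and TKT had no anti-MAFG peak within 5000 bp. HMOX1 had anti-MAFG peaks in replicates 1 and 2, at rank percentiles of 13.2 and 29.8 in their lists, and its anti-MITF peaks stood at 40.2, 56.3 and 63.4 in theirs. PRDX1, a peroxiredoxin gene, had the sole MAFG-preferring region of all the listed genes within that distance. Near PRDX1 the anti-MAFG values were 7.42, 4.34 and 4.68, and anti-MITF had peaks of 4.44 and 4.82 in replicates 1 and 3. Near SLC7A11, the cystine transporter gene, all 6 libraries had peaks, 4.94, 5.46 and 3.79 with anti-MITF and 10.99, 7.10 and 7.25 with anti-MAFG.

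Among 9 genes of MAF proteins and their partners, MAFG itself had a MITF-preferring region at its start, with anti-MITF fold enrichments of 6.95, 5.86 and 5.20 and no anti-MAFG peak. MAFF had one too, with anti-MITF fold enrichments of 3.97, 6.64 and 3.13. These stood at rank percentiles of 97.1, 39.6 and 99.9 in their lists, so those of replicates 1 and 3 were among the weakest peaks. NFE2L1, NFE2L2 (which encodes NRF2) and BACH1 had a shared region. Of 7 AP-1 genes, FOSL2, JUN, JUNB and JUND had a MITF-preferring region and none had a MAFG-preferring or shared one. JUN also had peaks of all 3 anti-MAFG libraries within 5000 bp.

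The lineage list named no preferring region. Of its 10 genes, MITF, SOX10 and EDNRB had a shared region, and MITF had anti-MITF fold enrichments of 9.42, 6.81 and 7.32 and anti-MAFG values of 13.6, 11.8 and 9.64. Of 10 survival and cell cycle genes, BIRC7 (which also had anti-MAFG peaks in 2 libraries) and CDK2 had a MITF-preferring region, and BCL2A1, MET, PPARGC1A and SCD a shared one. CDK2 and PMEL lie beside each other, and their regions are not independent. Of 8 genes of the dedifferentiated melanoma state, such as AXL and NGFR, 4 had no peak of either antibody within 5000 bp. When the whole gene with 5000 bp on either side was searched, MAFG-preferring regions reached 8 listed genes in place of 1, and MITF-preferring regions 27 in place of 22.

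The letters under the promoters were compared last. The 22198 tabled starts of protein-coding genes were searched from 250 bases before to 50 after the start, on both strands, for the 4 elements shown in capitals above. These windows leave out most of the MAFG-preferring class, of which 8.14% lay at a start, and distal sites were not searched. A MAF element can overlap an AP-1-like element, as in OSGIN1. The E-box was found in 8.34% of all windows and in 10.2% of windows with H3K4me3. It was found in 271 of the 987 windows in MITF-preferring regions (27.5%), in 4 of the 163 windows in MAFG-preferring regions (2.45%) and in 10.1% of windows in shared regions. The MAF element went the other way, in 10.1% of the MITF-preferring, 27.6% of the MAFG-preferring and 13.9% of the shared windows. It was in 15.4% of all windows and in 11.4% of windows with H3K4me3. The M-box was in 4.15%, 1.84% and 1.97% of the 3 sets and in 2.32% of all. The AP-1-like element was in 2.94%, 7.98% and 4.07%, and in 4.01% of all.

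Base composition differed among these sets. The median share of G and C was 68.0% in the MITF-preferring, 57.7% in the MAFG-preferring and 64.0% in the shared windows, beside 62.3% in all. Within windows of 60% to 70% G and C, the E-box was in 122 of 417 MITF-preferring windows (29.3%) and 1 of 49 MAFG-preferring windows (2.04%), beside 10.4% of all such windows. The MAF element was in 12.2% and 20.4%, beside 14.04%. The M-box was in 22 MITF-preferring windows (5.28%) and 1 MAFG-preferring window (2.04%), beside 1.39%. The AP-1-like element was in 16 MITF-preferring windows (3.84%) and 0 of the 49 MAFG-preferring windows, beside 3.03%. At that share, 49 windows are too few to read a direction. Among windows with H3K4me3 it was in 2.97% of the MITF-preferring and 4.39% of the MAFG-preferring ones. The difference in E-box shares was as large within that band of composition, and that in MAF element shares was smaller.

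Counted by library rather than by class, windows overlapping an anti-MITF peak held an E-box in 15.1%, 15.3% and 14.8% of cases, and windows overlapping an anti-MAFG peak in 8.02%, 7.61% and 7.63%. The MAF element was in 11.6%, 11.7% and 11.7% against 14.7%, 15.4% and 16.4%. Over all windows the shares were 8.34% for the E-box and 15.4% for the MAF element. Over windows with H3K4me3 they were 10.2% and 11.4%. The MAF element share under anti-MAFG peaks was thus near that of all windows, and that under anti-MITF peaks near that of marked windows. The antibodies did not overlap for either element. The differences were 7.33 and −3.82 points, each with exact permutation p = 0.1. The M-box differed by 0.897 and the AP-1-like element by −0.716 points, also with exact permutation p = 0.1. Among the shared regions, windows at those ranked higher with anti-MITF held the E-box in 16.4% of 140 cases and the MAF element in 13.6%. Windows at those ranked higher with anti-MAFG, of which there were 56, held the E-box in 7.14% and the MAF element in 14 of them.

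**Figure D5:**
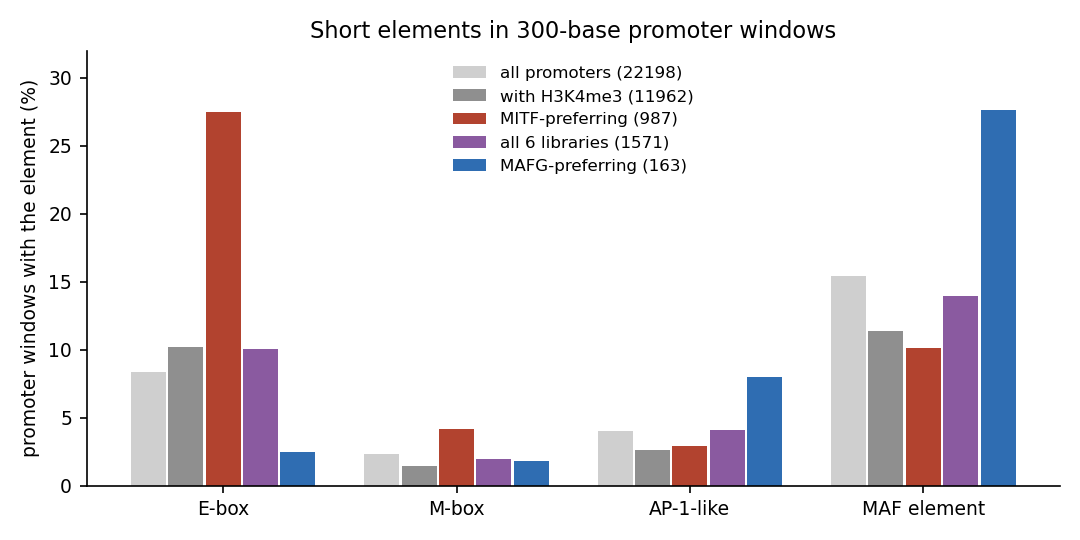
Percent of promoter windows of 300 bases that hold each element, for all windows, windows with H3K4me3 and the windows in each class of region. The E-box bar is tallest in the MITF-preferring set (27.5%) and the MAF element bar in the MAFG-preferring set (27.6%).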

How the data were processed

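CUT&RUN peak lists of WM164 cells were used: 6 of GFP cells (3 anti-MITF, 3 anti-MAFG), the H3K4me3 list of GFP cells, and 6 of MAFG-overexpressing cells. Per the submitters' processing notes, cutadapt 1.8.1, Bowtie2 2.4.1, MACS2 2.1.1.20160309, ChIPseeker 1.32.1 and deepTools were used with GRCh38 (hg38); the settings and the control used in peak calling are not given in the sources used here. Each list holds 1 library. The authors deposited for each peak a fold enrichment (a linear ratio), a −log10 p and a −log10 q, of which the lowest is 2, and a display score that was not used. The lists hold no read counts, so the depth is unknown.

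Peaks were merged with an overlap of at least 1 bp. Starts came from RefSeq promoter windows (GRCh38.p14). For the 4191 of 20033 protein-coding genes without one, either gene end was taken. A promoter peak has its summit, and a promoter region the median of its libraries' best summits, within 1000 bp of a start. Library measures were compared by exact permutation over libraries (20 assignments, two-sided unless stated) with Python 3.11.15 and scipy 1.17.1, and ranks by limma 3.58.1 in R 4.3.3 with Benjamini-Hochberg adjustment over 5131 regions. The scripts were tested on simulated data. Regions named are the 10 best-ranked of each preferring class, the 5 in each direction with the smallest limma p, and genes of fixed lists. Members and lists were chosen with earlier results of these data known. Alternatives covered a −log10 q of at least 5, equal peak number, 200 bp around summits, other gene distances, a replicate block and leaving out each library. Checks of G and C content, of chromosomes and of the regions ranked higher with 1 antibody were added after seeing the data.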

Additional observations from a re-analysis of the deposited data

How the results depend on the processing

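The 30 results were recomputed under 245 alternatives, of which 186 counted as the same, 6 turned the sign and 53 moved in size. For results with a p-value, every alternative that kept the sign counted as the same, whatever its size. The excess in summit distance of 3.67 bp in regions of at most 1000 bp thus counted as the same as 27.9 bp. The cause of the changes was not tested. The difference in the share overlapping the other antibody, 3.81 points, became −0.101 with equal peak number and −0.684 when 3 of 3 libraries had to call the other region. Leaving out 1 library moved it from −15.8 to 13.8, with −13.1 without anti-MAFG replicate 2. The log2 difference in peak number ran from −0.31 to 0.10 and was 0.02 without anti-MAFG replicate 2. The width difference of peaks ran from 14.3 to 63.8 bp. Leaving out 1 library gave 2359 to 4541 MAFG-preferring regions, the most without anti-MAFG replicate 3. It also gave 216 to 281 regions ranked higher with anti-MITF and 150 to 212 with anti-MAFG. H3K4me3 shares without 1 library were 55.6% to 58.3% (MITF-preferring), 11.05% to 12.4% (MAFG-preferring) and 36.5% to 39.3% (shared), and the promoter share of shared regions was 22.1% to 24.9%. Median widths were then 959 to 1198, 874 to 1079 and 1656.5 to 1686 bp. With a −log10 q of at least 5, widths were 1324, 1189 and 1849 bp, 2757 regions were shared, the MAFG-preferring H3K4me3 share was 12.5% and the shared promoter share 21.7%. With equal peak number, MITF-preferring regions had 39.0% promoters, 55.9% H3K4me3 and a width of 1292 bp, MAFG-preferring regions a width of 1147.5 bp, and 3254 regions were shared, 21.6% at promoters. With 200 bp around summits the promoter shares were 38.3%, 11.04% and 25.04%, the H3K4me3 shares of the preferring classes 52.5% and 15.8% and the widths 302, 299 and 362 bp, with 1753 shared regions. Searching whole genes gave 8 listed genes with a MAFG-preferring region. With tabled starts only, the promoter difference was 8.63 points. Same-numbered libraries correlated at 0.0032, −0.022 and 0.0020 in the deviations of their rank scores at shared regions. No pairing by number was seen in that measure, which cannot exclude a common culture or batch. With the replicate block the promoter difference stayed 10.4 points (exact sign-flip p = 0.25, the smallest for 3 pairs), and the block gave 395 and 322 regions ranked higher with anti-MITF and anti-MAFG. The lists hold no reads, so no limit from depth can be given.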

Other observations

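The classes were spread unevenly over the chromosomes. Chromosomes 16, 17, 19, 20 and 22, chosen after their values were seen, held 648 MITF-preferring regions (30.4%) and 82 MAFG-preferring regions (4.09%), beside 9.71% of the shared regions and 12.2% of all merged regions. These chromosomes hold 22.3% of protein-coding genes and 22.8% of the H3K4me3 peaks. Chromosome 19 alone held 130 MITF-preferring and 2 MAFG-preferring regions, of 716 merged regions there. Among regions over 10000 bp from a start and without H3K4me3, the 5 chromosomes held 22.2% of the MITF-preferring and 3.72% of the MAFG-preferring regions, beside 8.51% of all such regions.

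By library, the 5 chromosomes held 15.7%, 15.6% and 15.1% of the anti-MITF peaks and 9.06%, 8.01% and 7.63% of the anti-MAFG peaks. The antibodies did not overlap, and the difference was 7.21 points. Because the chromosomes were chosen from these same lists, that difference is a description and no p-value is given for it. Chromosome 19 held 2.14% ± 0.0228 of the anti-MITF and 0.456% ± 0.0879 of the anti-MAFG peaks (SD, n = 3 each). The H3K4me3 contrast was present without these chromosomes as well: 38.1% ± 0.649 of anti-MITF peaks and 25.01% ± 0.609 of anti-MAFG peaks elsewhere overlapped H3K4me3 (exact permutation p = 0.1). For the classes the shares elsewhere were 55.0% of the MITF-preferring and 10.5% of the MAFG-preferring regions.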
